A study of Mus musculus with 2 samples.

Results

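The genes described here are those of the cytosolic ribosomal proteins, the protein subunits of the ribosome that translates nuclear messengers. They were chosen by symbol, as Rpl or Rps followed by a number with an optional ending, together with Rplp0, Rplp1, Rplp2 and Rpsa, without pseudogene symbols, and with at least 200 unique molecular identifiers (UMIs, each marking 1 captured transcript) over both libraries. Of 32285 genes in the files 84 had such a symbol and 82 passed, 50 of the large subunit and 32 of the small subunit. Just inside the minimum was Rpl39l with 215 UMIs, and the next lowest member, Rpl7l1, lay far above it with 14786. Outside were Rpl3l with 6 and Rpl10l with 0. The 82 genes lie on 19 chromosomes, with 14 on chromosome 7 and 4 on the X chromosome.

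Mitral valve leaflets of C57BL/6J mice aged 1 month were digested to single cells and captured with the 10x Genomics 3′ chemistry. The wild type library, Fbn1 +/+, pooled 5 mice, and the Fbn1 C1039G/+ library pooled 3 mice carrying 1 copy of a fibrillin-1 allele that models Marfan syndrome. The libraries held 100969482 and 103663375 UMIs, and 8426 and 8688 cells were kept, with medians of 9755.5 and 9710.5 UMIs per cell. Because each genotype had 1 library, no test between genotypes was possible, cells were not treated as replicates, and all intervals (95%) cover counting error only. The 3 Fbn1 C1039G/+ mice were of both sexes, so 1 sex there came from a single mouse. In all, 17 cell barcodes occurred in both libraries.

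Cells were classed by transcripts. Interstitial cells, the fibroblasts that make the valve matrix, had at least 1% of UMIs in Dcn, Col1a1, Col1a2 and Col3a1 and numbered 6876 in the wild type and 7069 in the Fbn1 C1039G/+ library. Below that share, cells with at least 10 UMIs of C1qa, C1qb and C1qc were classed as macrophages (773 and 864), and cells with at least 5 UMIs of Pecam1, Cdh5 and Emcn as endothelial cells (235 and 307). All 8 listed markers of each class reached 20 CPM (each gene's UMI count divided by all UMIs of that class and library and brought to a common total) in that class in both libraries. The summed macrophage markers stood at 20289 and 21802 CPM in macrophages and at 102 and 103 CPM in interstitial cells. The summed interstitial markers stood at 4332 and 5803 CPM in endothelial cells, so that class also carried matrix transcripts, and the share of this that is free RNA was not measured. T cells (129 and 62) and melanocytes (112 and 73) were set apart for a description of shares only.

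As background, a ribosome holds 1 copy of nearly every ribosomal protein, and the genes are scattered over the genome yet made in step with each other. Their messengers begin with an oligopyrimidine tract, called a TOP motif, through which the mTOR pathway and the protein LARP1 control their translation and storage. Several members have a close paralog that can take their place in the ribosome or that has work of its own, among them Rps27l beside Rps27, Rpl22l1 beside Rpl22 and Rpl39l beside Rpl39. Rplp0, Rplp1 and Rplp2 form the stalk of the large subunit that recruits translation factors, and Rpsa is also known as the laminin receptor precursor.

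The start sites of the members on which the results turn are shown first, because the pyrimidine tract at the start is the feature the family is known for. Each window runs 5′ to 3′ from 30 bases before to 20 bases from the annotated start on, from RefSeq on GRCm38.p6, and capitals mark the longest run of C and T that overlaps the 10 bases on either side of the start. The windows are Rps27 at chr3:90213629-90213678 on the minus strand, and, all on the plus strand, Rps27l at chr9:66946056-66946105, Rpl22 at chr4:152324406-152324455, Rpl22l1 at chr3:28805478-28805527, Rps21 at chr2:180257349-180257398, Rps25 at chr9:44407684-44407733, Rplp0 at chr5:115559437-115559486, Rpl13 at chr8:123102320-123102369 and Rpl7a at chr2:26910777-26910826. Rpl7a is shown for its tract, the longest among the members, of 21 bases. Where the table gives several starts the one with the longest tract is printed.
Rps27: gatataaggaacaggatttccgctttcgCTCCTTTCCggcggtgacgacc
Rps27l: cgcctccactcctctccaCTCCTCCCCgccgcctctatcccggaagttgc
Rpl22: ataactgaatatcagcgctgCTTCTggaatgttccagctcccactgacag
Rpl22l1: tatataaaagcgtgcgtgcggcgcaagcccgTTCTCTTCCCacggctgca
Rps21: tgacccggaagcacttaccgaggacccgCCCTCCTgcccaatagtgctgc
Rps25: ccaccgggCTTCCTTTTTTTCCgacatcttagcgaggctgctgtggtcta
Rplp0: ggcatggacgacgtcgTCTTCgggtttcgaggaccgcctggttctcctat
Rpl13: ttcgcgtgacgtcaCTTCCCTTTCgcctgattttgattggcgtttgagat
Rpl7a: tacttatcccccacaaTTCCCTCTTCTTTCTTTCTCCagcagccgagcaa

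The promoter table held 62 of the 82 members. A tract of at least 8 bases was found in 29 members (46.8%) and in 16.1% of all 27025 genes of the table, and the median tract was 7 bases in members and 5 bases in all genes. On the gene strand within 10 bases of the start, the pyrimidine word CTCTTT lay in 7 members (11.3%) and in 1.047% of all genes. The word CTTTCC lay there in 10 members (16.1%) and 1.30% of all genes. The word TCTTTC, which can overlap both, lay in 7 members (11.3%) and 0.999% of all genes. At least 1 of these words was found in 14 members (22.6%) and in 2.66% of all genes. Over the whole window of 250 bases before and 50 from the start on, on both strands, the letters CCGGAAG of the GABP motif occurred in 26 members (41.9%) and 9.93% of all genes, AANATGG of the YY1 motif in 20 members (32.3%) and 18.2%, and TATAAA in 7 members (11.3%) and 15.7%. Among the 10395 other genes that also had at least 200 UMIs, the shares were 19.4% for CCGGAAG, 17.2% for AANATGG and 9.06% for TATAAA, so TATAAA was less frequent in members than in all genes and more frequent than in these. A tract of at least 8 bases was found in 17.7% of them and any of the pyrimidine words in 2.45%. These matches describe letters and not binding. Of the members shown, Rpl22l1, Rplp0 and Rpl22 had TATAAA in the window, and Rps27l, Rps21 and Rps25 had CCGGAAG. The Rpl22 start shown lies upstream of the gene as annotated for the files (chromosome 4, 152325742 to 152334071), and its other start, with the window chr4:152325696-152325745, had a tract of 4 bases and no TATAAA.

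Ribosomal protein transcripts were among the most abundant of the interstitial cells. A UMI marks a transcript end, so levels were not divided by length. The median member reached 1666 CPM in wild type cells and 1537 CPM in Fbn1 C1039G/+ cells, 60 and 55 members reached 1000 CPM, and 47 and 46 were among the 100 most abundant genes. By the mean of both libraries, Rpl13, a large subunit protein, was highest at 3787 and 3562 CPM. It was followed by the small subunit proteins Rps24 at 3161 and 2920.4 CPM and Rps4x at 3086 and 2777 CPM, by Rps20 at 2902 and 2731 CPM and by Rpl23, a large subunit protein that also binds Mdm2, at 2934 and 2639 CPM. In the wild type alone, the stalk protein Rplp1 at 2953 CPM lay above both Rpl23 and Rps20, and the order of Rps20 and Rpl23 differed between the libraries.

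The lowest members were mostly paralogs. Rpl39l, a copy of Rpl39 best known from the testis, stood at 1.10 and 0.691 CPM, and Rpl7l1, a relative of Rpl7 that acts in large subunit assembly, at 66.9 and 74.8 CPM. Rps27l, a p53 target, stood at 376 and 423 CPM. Next by the mean of both libraries came Rpl31 at 452 and 399 CPM, which lay below Rps27l in the Fbn1 C1039G/+ library, and Rpl23a at 478 and 440 CPM, both proteins of the exit tunnel through which the new chain leaves. Processed copies with symbols of their own were counted apart, with 6662 UMIs for Rps27rt against 213842 for Rps27 and 5994 for Rpl9-ps6 against 472614 for Rpl9, and reads shared between such copies and the members could not be placed, so levels between genes are uncertain. The small subunit had the higher median level in interstitial cells, 1917 and 1737 CPM against 1522 and 1323 CPM for the large subunit.

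**Figure D1:**
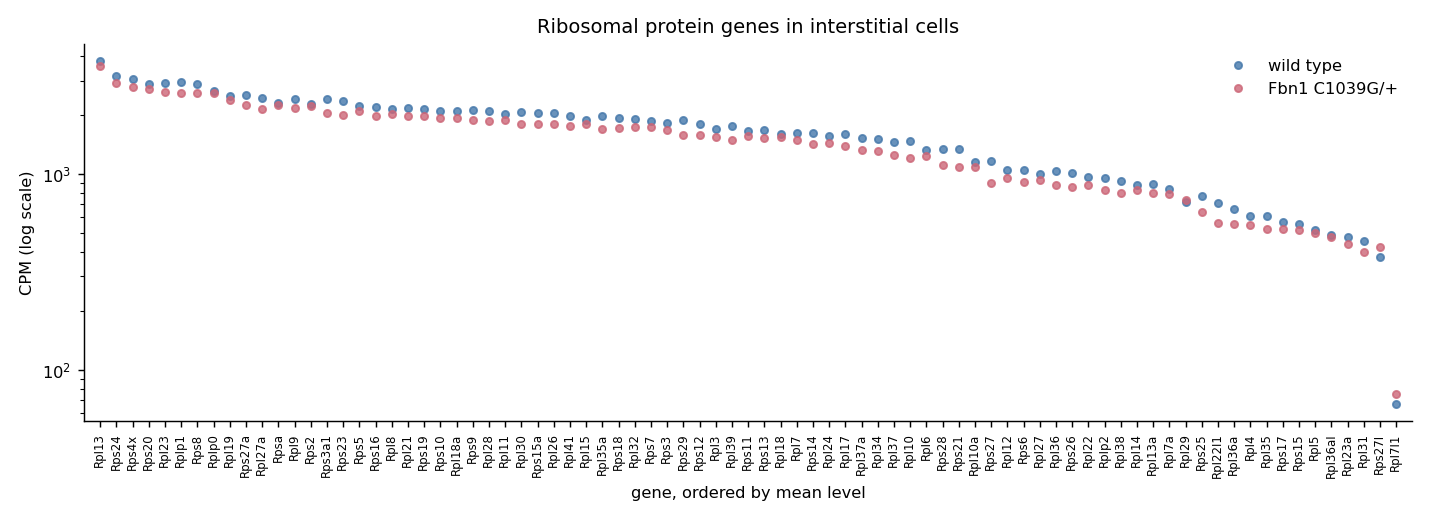
Level of each measured member in interstitial cells, in CPM on a log scale, ordered by the mean of both libraries, with 1 point per library. The Fbn1 C1039G/+ points lie below the wild type points except for Rps27l, Rpl7l1 and Rpl29, and Rpl39l is left out because it is under the level filter.

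The share of all UMIs that came from the 82 genes was highest in T cells, 22.8% (22.7 to 22.9) in the wild type and 25.8% (25.6 to 26.0) in the Fbn1 C1039G/+ library, and lowest in melanocytes and Fbn1 C1039G/+ interstitial cells. Macrophages stood at 15.1% (15.05 to 15.10) and 14.4% (14.33 to 14.39), interstitial cells at 13.4% (13.37 to 13.38) and 12.1% (12.06 to 12.08), endothelial cells at 12.6% (12.61 to 12.68) and 12.5% (12.42 to 12.48) and melanocytes at 11.3% (11.25 to 11.40) and 11.4% (11.35 to 11.52). Relative to interstitial cells of the same library, T cells held 1.71 and 2.14 times and macrophages 1.13 and 1.19 times the share. Endothelial cells held 0.946 times the interstitial share in the wild type and 1.03 times in the Fbn1 C1039G/+ library, so the order of these classes differed between the libraries. T cells were also the shallowest of these cells, with medians of 4466 and 4061 UMIs, and their hemoglobin genes summed to 8120.5 CPM in the wild type, with none at 0, and to 81.7 CPM in the Fbn1 C1039G/+ library, with 1 of 4 at 0. The 8 cycling markers summed to 1836 and 960.5 CPM in T cells with none at 0. The part of depth or of these transcripts in the T cell share was not tested.

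**Figure D2:**
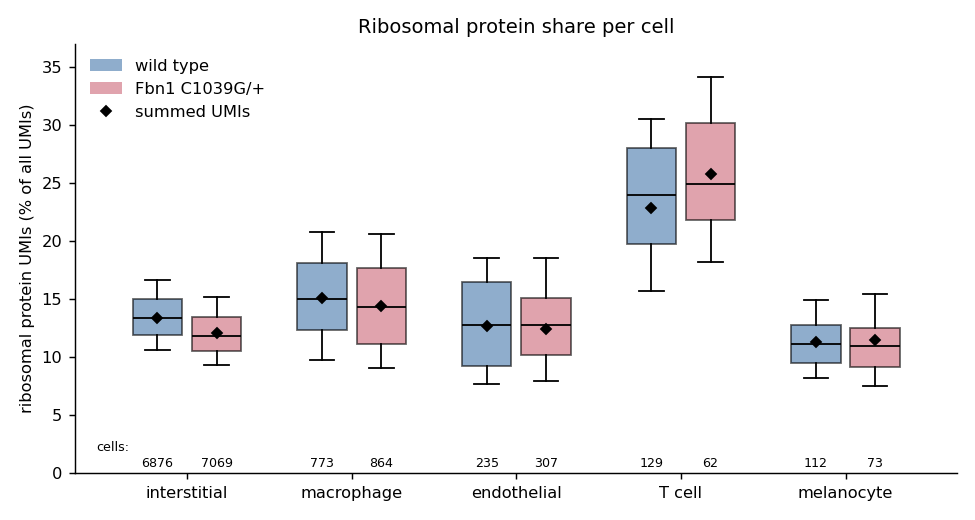
Ribosomal protein UMIs as a percentage of all UMIs per cell, by class and library. Boxes give the quartiles over cells with the median as a line, whiskers the 10th and 90th percentiles, diamonds the share of summed UMIs, and the numbers of cells stand at the foot. T cells lie highest, and the interstitial box of the Fbn1 C1039G/+ library lies lower than that of the wild type.

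In interstitial cells the share was lower in the Fbn1 C1039G/+ library, with a ratio of 0.902 (0.902 to 0.903), and 73.8% of its cells lay below the wild type median of 13.4%. The mean cell held 1401 ribosomal protein UMIs in the wild type and 1285 in the Fbn1 C1039G/+ library, beside 9077 and 9361 UMIs of all other genes. Mitochondrial shares (medians of 3.41% and 3.34%) and median depths (9945.5 and 9960 UMIs) of these cells were close. The spread of depth differed, with 27 wild type and 173 Fbn1 C1039G/+ cells under 2500 UMIs. From 20000 UMIs up there were 165 and 322 cells. The 4 hemoglobin genes, markers of red cells, summed to 1159 CPM in wild type and 531 CPM in Fbn1 C1039G/+ interstitial cells with none at 0. The 8 interstitial markers summed to 36132 and 39857 CPM with none at 0. The part of either in the share was not tested.

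The lower share held in most subsets of interstitial cells. Between 2500 and 5000 UMIs it was 12.5% in the wild type and 11.5% in the Fbn1 C1039G/+ library, between 5000 and 10000 UMIs 14.1% and 12.4%, between 10000 and 20000 UMIs 12.9% and 11.9%, and from 20000 UMIs up 12.8% and 12.0%. Under 2500 UMIs, with 27 and 173 cells, the order was the opposite, 10.1% (9.87 to 10.4) and 10.4% (10.27 to 10.49). Female cells, with Xist and no Y-linked transcript, held 13.5% and 12.2%, and male cells 13.3% and 11.9%. Cycling cells, 62 and 78 in number, held 11.8% and 10.9%, below the 13.4% and 12.1% of the cells not cycling. They were also deeper, with medians of 19024.5 and 18568 UMIs against 9921.5 and 9925 UMIs. The part of depth in this gap was not tested.

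Clustering of the interstitial class without the 82 genes and without mitochondrial genes gave 10 states, of which 6 had at least 100 cells in both libraries, and the share was lower in the Fbn1 C1039G/+ library in 6 of 6. Among these 6, the state led by Nrgn, Bglap2 and Mal held the highest share, 15.2% in the wild type and 13.7% in the Fbn1 C1039G/+ library. The state led by Mmp3, Igfbp3 and C3 had the widest gap, 12.7% and 10.99%. The state led by Ccl2, Id4 and Notch3, which also has the mural marker Rgs5 among its leading genes, had the narrowest, 14.1% and 13.7%. Among the smaller states, the one led by Isg15, Ifit3 and Ifit3b held 13.1% in 44 wild type and 11.2% in 234 Fbn1 C1039G/+ cells. Others were led by Lyz2, Top2a and Ube2c and by Egfl7, H19 and Nts (28 wild type cells with 16.4% and 98 Fbn1 C1039G/+ cells with 13.4%), so the class held some cells with macrophage or endothelial transcripts. A state led by Ccl5, Epsti1 and Ccr7 was nearly confined to the Fbn1 C1039G/+ library, with 1 wild type cell and 96 Fbn1 C1039G/+ cells. Those 96 cells were shallow, with a median of 2607.5 UMIs, and held a share of 11.7%. With both libraries weighted to the same mix of the 6 states the shares were 13.4% and 12.2%, a ratio of 0.909.

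**Figure D3:**
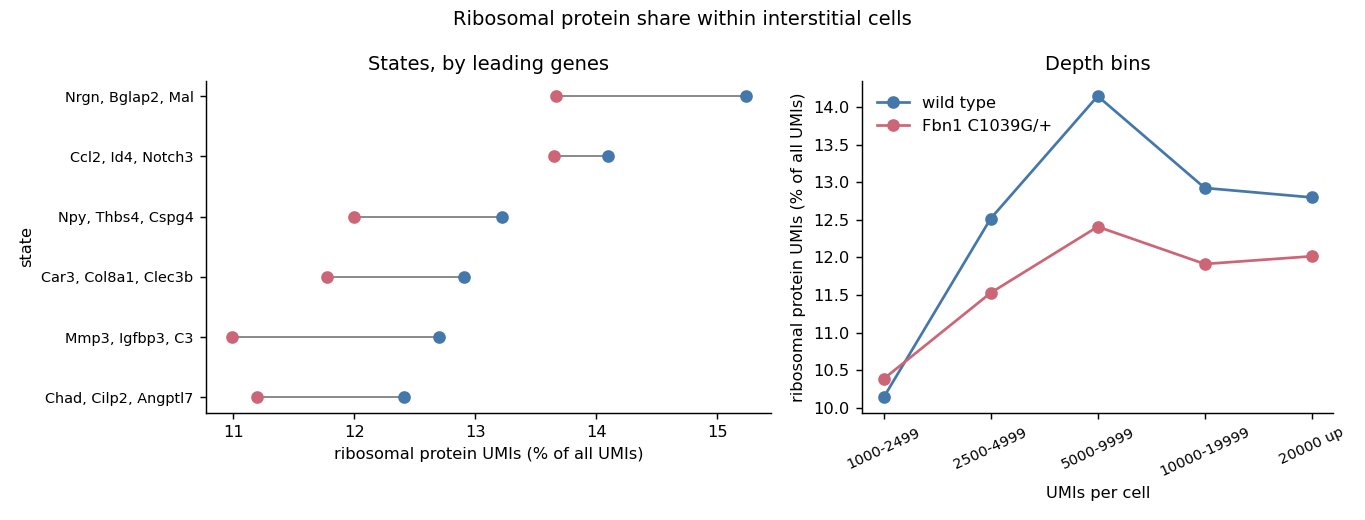
Ribosomal protein share of all UMIs in interstitial cells, on the left by state (named by leading genes, 1 point per library joined by a line) and on the right by bins of UMIs per cell. The Fbn1 C1039G/+ points lie to the left of the wild type points in all 6 states and below them in all depth bins but the shallowest. The share axes do not start at 0.

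In macrophages the ratio of the share was 0.952 (0.9499 to 0.955), and 54.6% of Fbn1 C1039G/+ cells lay below the wild type median. Median depth was 8199 UMIs in wild type and 7362.5 UMIs in Fbn1 C1039G/+ macrophages. In endothelial cells it was 0.985 (0.981 to 0.988) over all cells and 1.03 (1.03 to 1.04) in cells with 5000 to 20000 UMIs, so its direction depended on which cells were counted. The 4 hemoglobin genes summed to 35.0 CPM in the wild type endothelial cells and 803 CPM in the Fbn1 C1039G/+ ones, and the 8 interstitial markers to 4332 and 5803 CPM, with none at 0 in either library.

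Gene by gene, the interstitial difference was small and spread over nearly the whole family. A gene was measured with at least 20 CPM in either library and 50 UMIs over both, which 81 of the 82 members met (all but Rpl39l), and called when it differed by at least 1.5-fold on log2(CPM + 1) with a counting interval that excluded 1. No member was called, while 2.10% of all 6530 measured genes were. The log2 ratio of Fbn1 C1039G/+ over wild type was below 0 for 78 of 81 members and for 38.0% of all measured genes, with a median of -0.15 for members and 0.035 for all. It ranged from -0.37 for Rps27 to 0.17 for Rps27l, a pair of paralogs.

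Rps27, a small subunit protein with a zinc finger (ENSMUSG00000090733; chromosome 3, 90212522 to 90213651), had the lowest ratio in interstitial cells. Wild type cells had 1165 CPM and Fbn1 C1039G/+ cells 902 CPM of it, and the ratio was 0.775 (0.767 to 0.783). Rpl22l1 (ENSMUSG00000039221; chromosome 3, 28805436 to 28807424) had 709 and 563 CPM and a ratio of 0.793 (0.783 to 0.803). The small subunit gene Rps21 (ENSMUSG00000039001; chromosome 2, 180257377 to 180258445) had 1351 and 1082 CPM and a ratio of 0.801 (0.793 to 0.808). All of these gaps were wider than counting error and under the 1.5-fold threshold, and all were lower in the Fbn1 C1039G/+ library.

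At the other end, Rps27l (ENSMUSG00000036781; chromosome 9, 66946086 to 66949516) had 376 CPM in wild type and 423 CPM in Fbn1 C1039G/+ interstitial cells, with a ratio of 1.12 (1.11 to 1.14). Rpl7l1 had 66.9 and 74.8 CPM there and the same ratio of 1.12 (1.08 to 1.16). Rpl29, a large subunit protein also known to bind heparin, stood at 724 and 733 CPM, a log2 ratio of 0.02 that became -0.02 when libraries were scaled by the median ratio of all genes. The stalk proteins did not move as 1 block, with log2 ratios of -0.05 for Rplp0, -0.19 for Rplp1 and -0.21 for Rplp2. Rpsa, at 2323 and 2266 CPM, had a log2 ratio of -0.04.

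In macrophages no member was called either, against 4.52% of 5989 measured genes. The median log2 ratio of the 81 members was -0.066, with 58 below 0, beside 45.4% of all measured genes. The lowest were Rpl22l1 at 446 and 365 CPM (log2 -0.29), Rps27 at 1240.0 and 1029 CPM (log2 -0.27) and the small subunit gene Rps28 at 1831 and 1556 CPM (log2 -0.23). The highest were Rpl7l1 at 73.2 and 91.6 CPM (log2 0.32), Rpl5, which carries the 5S ribosomal RNA into the large subunit, at 492 and 524 CPM (log2 0.09), and Rpl23a at 482 and 512 CPM (log2 0.09).

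Endothelial cells also had no called member, against 6.70% of 7242 measured genes. The median was -0.030 over the 81 members, with 52 below 0, beside 47.8% of all measured genes. Rps27 was again lowest at 1042 and 830 CPM (log2 -0.33), followed by Rpl37a, a zinc-binding large subunit protein, at 1541 and 1322 CPM (log2 -0.22) and by Rps21 at 1182 and 1021 CPM (log2 -0.21). Rpl29 was highest at 1040.4 and 1219 CPM (log2 0.23), then Rpsa at 2079 and 2354 CPM (log2 0.18) and Rps2, a small subunit protein at the messenger entry channel, at 2345 and 2639 CPM (log2 0.17). The 3 classes come from the same libraries and are no independent repeats of the genotype comparison.

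Among the members the ratio followed the length of the protein they encode, a relation looked for after the values had been seen. In interstitial cells the 9 measured members with a coding sequence under 300 bases (the longest annotated one, so Rpl41 is longer here than its main product) had a median log2 ratio of -0.24, all of them below 0, from -0.37 to -0.15. The 29 members from 300 to 450 bases had a median of -0.19, the 19 from 450 to 600 bases -0.12, the 20 from 600 to 900 bases -0.096 and the 4 longer ones -0.091. Rps29 with 168 bases stood at 1902 and 1578 CPM, while Rplp0 with 951 bases stood at 2676 and 2590.3 CPM. Rpl10, which takes part in the last steps of large subunit maturation, departed from this order, with 642 bases and 1474 and 1211 CPM (log2 -0.28), as did Rps27l with 315 bases.

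Spearman's rho between coding length and the log2 ratio over the 81 members was 0.54 in interstitial cells, 0.62 in macrophages and 0.59 in endothelial cells (Pearson's r with log2 length 0.44, 0.60 and 0.54). Over the other measured genes rho was -0.072, -0.26 and 0.037. The points share 2 libraries, so the values describe these libraries, and the part of transcript length, base composition or capture was not tested. In the class under 300 bases the other 164 measured genes had a median log2 ratio of 0.024 in interstitial cells. In macrophages the shortest members had a median of -0.20 and the 4 longest 0.011, and in endothelial cells -0.19 and 0.099.

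**Figure D4:**
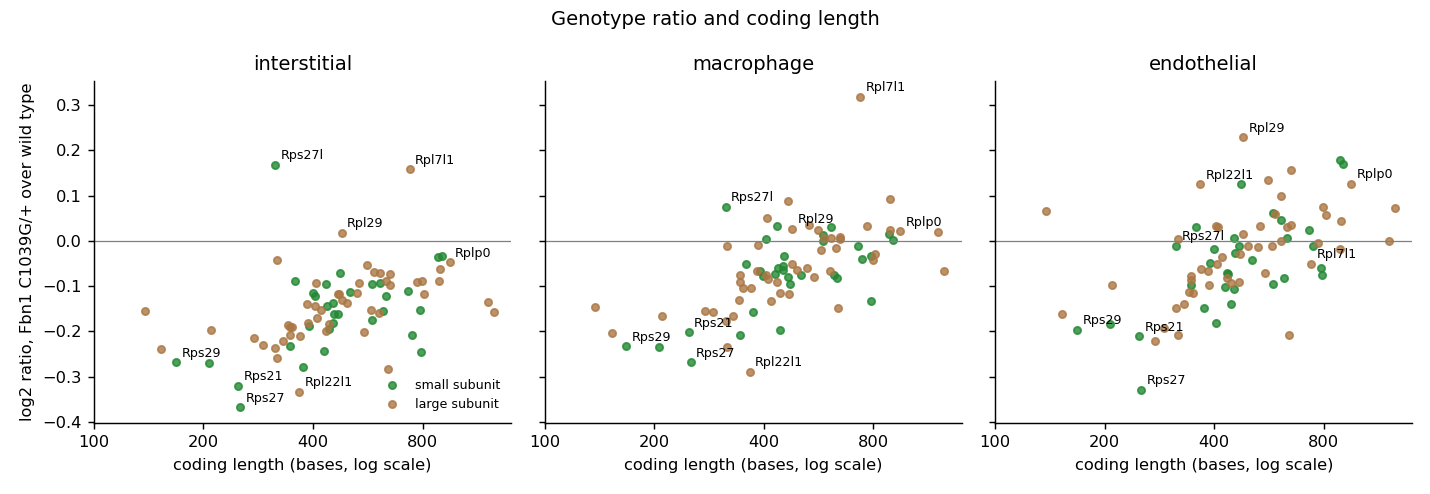
Log2 ratio of Fbn1 C1039G/+ over wild type for each measured member against its coding length in bases on a log scale, in 3 cell classes, with small subunit members in green and large subunit members in brown. The median of the members under 300 bases is the lowest of the length groups in all 3 panels, with single members such as Rpl41 above it, and Rps27l, Rpl7l1 and Rpl29 lie above 0 in interstitial cells.

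Members with a tract of at least 8 bases at the start differed little from the others in this comparison. Their median log2 ratio in interstitial cells was -0.18 over 29 members, against -0.14 over the 32 with a shorter tract. In macrophages the medians were -0.075 and -0.057, and in endothelial cells -0.042 and -0.033. Rps27 and Rps27l, at opposite ends in interstitial cells, both had a tract of 9 bases in the windows shown above. The split at 8 bases was set after the values had been seen.

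The paralog pairs shifted unevenly between the libraries. Rps27l made up 24.4% (24.2 to 24.7) of the UMIs of Rps27 and Rps27l in wild type and 31.9% (31.6 to 32.2) in Fbn1 C1039G/+ interstitial cells. The same share was 27.2% and 32.2% in macrophages, 33.3% and 38.4% in endothelial cells and 32.8% (30.1 to 35.7) and 42.6% (39.0 to 46.2) in melanocytes. In T cells it was 12.4% (11.01 to 13.8) and 7.94% (6.16 to 10.1), with Rps27 at 2425 and 2486 CPM. The Rps27l share was thus higher in the Fbn1 C1039G/+ library in 4 of these 5 classes and lower in T cells. Rps27rt, a near-identical copy of Rps27, had 3882 and 2780 UMIs over all barcodes.

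Rpl22l1 made up 42.3% (42.0 to 42.5) of its pair with Rpl22 in wild type and 39.0% (38.7 to 39.3) in Fbn1 C1039G/+ interstitial cells. In macrophages the share was 29.1% (28.3 to 30.001) and 26.1% (25.2 to 26.9), and in endothelial cells 40.3% (38.9 to 41.6) and 43.5% (42.3 to 44.7). The level of Rpl22l1 in endothelial cells was 583 and 636 CPM, higher in the Fbn1 C1039G/+ library, while it was lower there in interstitial cells and macrophages. Rpl36al made up 42.5% and 46.2% of its pair with Rpl36a in interstitial cells, 51.4% and 55.2% in macrophages and 45.7% and 49.4% in endothelial cells. In interstitial cells Rpl36al itself stood at 490 and 476 CPM and Rpl36a at 663 and 554 CPM. In melanocytes the Rpl36al share was 52.7% (49.1 to 56.3) and 57.4% (53.4 to 61.4). In T cells it was 56.0% (53.3 to 58.7) and 51.0% (46.7 to 55.2). The intervals of the libraries overlapped in both of these classes. Rpl7l1 made up 3.94% and 4.75% of its pair with Rpl7 in interstitial cells and 4.63% and 5.83% in macrophages. In endothelial cells it made up 6.01% (5.40 to 6.67) and 5.60% (5.09 to 6.14), with intervals that overlapped.

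Rpl39l was rare, at 0.0623% and 0.0463% of its pair with Rpl39 in interstitial cells. In macrophages there were 35 UMIs in 23 of 773 wild type cells and 2 UMIs in 1 of 864 Fbn1 C1039G/+ cells, a ratio of 0.0594 (0.00692 to 0.231). It was under the level filter in both, and the gene had 79 and 52 UMIs in interstitial cells and 0 in T cells and melanocytes of either library. The muscle paralog Rpl3l and the testis paralog Rpl10l had 0 UMIs in these classes, which in interstitial cells allows up to 0.00300% and 0.00316% of the pair for Rpl3l and 0.00347% and 0.00405% for Rpl10l.

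The 4 X-linked members showed near-equal levels in female and male interstitial cells, with Rpl10 the furthest apart. Rps4x stood at 3143 CPM in female and 3032 CPM in male wild type cells, a ratio of 1.04 (1.03 to 1.046), and the ratio was 1.01 (1.00 to 1.02) in the Fbn1 C1039G/+ library. The ratios for Rpl10 were 1.08 and 1.08, for Rpl36a 1.02 and 1.03, and for Rpl39 1.00 and 1.01. Eif2s3x, an initiation factor gene on the X chromosome that escapes inactivation, had ratios of 1.63 and 1.70. Each sex gave the same median genotype log2 ratio over the 81 members, -0.15, with 77 below 0 in female and 79 in male cells.

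Between cell classes the proportions of the members to each other were similar in both libraries. Macrophages were compared with interstitial cells within each library, and a member was counted when called the same way in both. Of the 81 measured members 3 were higher and 1 was lower, against 21.4% and 32.4% of 7334 measured genes called higher and lower, a low share for the members. Their median log2 ratio was 0.21 against -0.17 for all measured genes. With each library scaled by the median ratio of all measured genes, the median of the members was 0.37.

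Rps29, a small subunit protein of the ribosome's head region (ENSMUSG00000034892; chromosome 12, 69157722 to 69159186), had the widest gap. Wild type macrophages held 3966 CPM and wild type interstitial cells 1902 CPM, a ratio of 2.09 (2.06 to 2.11). In the Fbn1 C1039G/+ library the levels were 3376 and 1578 CPM, a ratio of 2.14 (2.11 to 2.17). Rpl32, a large subunit protein, was 1.62 and 1.70 times as high in macrophages, and Rpl29 1.56 and 1.57 times as high. The lower member was Rpl22l1, at 446 CPM in macrophages and 709 CPM in interstitial cells of the wild type, a ratio of 0.629 (0.607 to 0.652), and at 365 and 563 CPM in the other library, with a ratio of 0.649 (0.623 to 0.675).

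With each class scaled to its own ribosomal protein UMIs, the highest members in macrophages were Rps29 (log2 0.89 and 0.85 in the wild type and Fbn1 C1039G/+ library), Rpl32 (0.52 and 0.51), Rpl29 (0.47 and 0.40), Rps25 (0.38 and 0.43) and Rplp2 (0.33 and 0.37). The lowest were Rpl22l1 (-0.84 and -0.87), Rpl21 (-0.40 and -0.40), Rpl36a (-0.36 and -0.42), Rps3a1 (-0.37 and -0.34) and Rpl28 (-0.32 and -0.31). Rps25, a small subunit protein needed for some internal initiation, stood at 1138 and 1020 CPM in macrophages and 775 and 638 CPM in interstitial cells.

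In endothelial cells no member was called the same way in both libraries, against 22.2% of 7391 measured genes called higher and 12.8% called lower. With median-ratio scaling these shares were 15.4% and 16.8%. The median of the members was -0.028 and that of all measured genes 0.23. Rpl29 came nearest, at 1040.4 CPM in endothelial and 724 CPM in interstitial cells of the wild type, a ratio of 1.44 (1.39 to 1.49), and at 1219 and 733 CPM in Fbn1 C1039G/+ cells, with a ratio of 1.66 (1.62 to 1.71) that was called, beside 26.8% of genes called higher there. Scaled to ribosomal protein UMIs, Rpl29 (log2 0.60 and 0.69), Rps3, a small subunit protein also active in DNA repair (0.48 and 0.49), Rpl7l1 (0.57 and 0.23), Rps27l (0.55 and 0.24) and Rpl41 (0.26 and 0.36) were highest. Rps4x (-0.37 and -0.41), Rps12 (-0.30 and -0.37), Rplp0 (-0.33 and -0.28), Rpl21 (-0.29 and -0.27) and Rps15a (-0.23 and -0.22) were lowest.

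**Figure D5:**
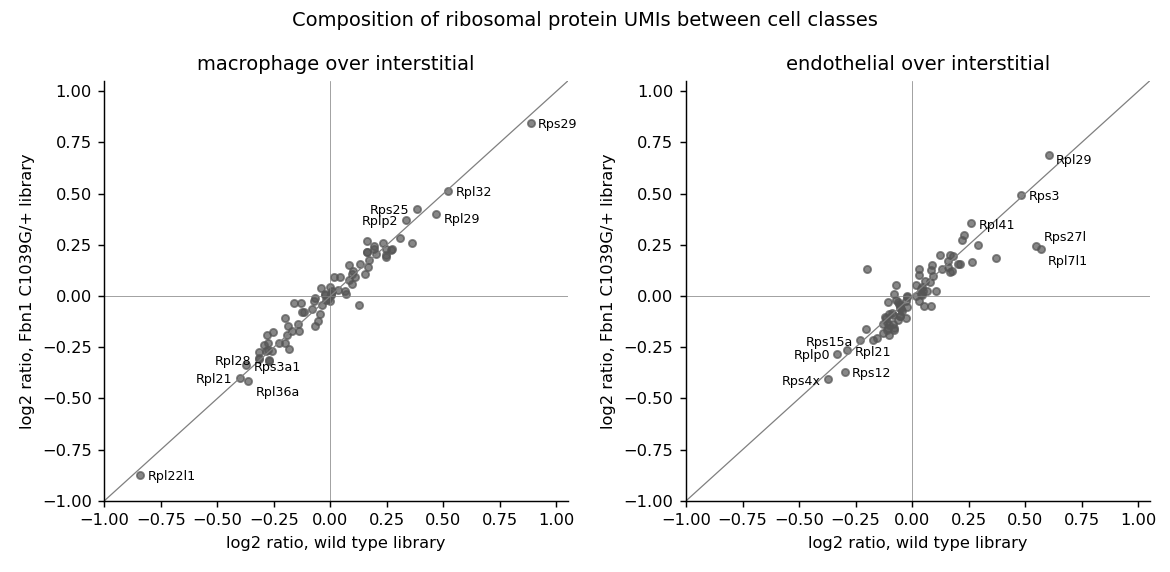
Log2 ratio of each measured member between cell classes after scaling to the UMIs of the members, wild type library on the x axis and Fbn1 C1039G/+ library on the y axis, with the line of equal values. Most points lie near the line, Rps29 and Rpl22l1 stand at the ends for macrophages, and Rps27l and Rpl7l1 lie off the line for endothelial cells.

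Other genes of ribosome assembly and translation were described in the same way. Of 20 listed translation genes that are also known as TOP messengers, all 20 were measured in interstitial cells and 0 were called. A log2 ratio below 0 was found for 17, and the median was -0.087. Beside them 2.10% of all measured genes were called and 38.0% had a log2 ratio below 0. Fau, which encodes a ribosomal protein fused to a ubiquitin-like protein and falls outside the symbol rule, stood at 2193 and 1938 CPM (log2 -0.18). Tpt1, an abundant TOP messenger, stood at 4818 and 4357 CPM (log2 -0.15), and Eef1a1, the elongation factor that delivers transfer RNAs, at 3550.3 and 3321 CPM (log2 -0.10). In macrophages 12 of the 20 had a log2 ratio below 0, beside 45.4% of all measured genes, and the median was -0.0091. In endothelial cells 5 had a log2 ratio below 0, beside 47.8% of all measured genes, and the median was 0.085. Btf3, a subunit of the nascent chain complex, had the highest ratio of the list in interstitial cells (log2 0.08).

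The same direction was not seen in the other lists in interstitial cells. Of all measured genes there 2.10% were called and 38.0% lay below 0, with a median log2 ratio of 0.035. Of 38 genes of ribosome biogenesis 28 were measured and 0 called, with 17 above 0, 11 below 0 and a median of 0.022. These values lay close to those of all measured genes. They ranged from -0.14 for Taf1d and -0.13 for Ncl, the nucleolar protein nucleolin, to 0.38 for Bop1. Of 22 other initiation and elongation factors 20 were measured and 0 called, with 17 above 0 and a median of 0.072, from -0.19 for Eif4a2 to 0.32 for Eif5. Of 78 proteins of the mitochondrial ribosome 69 were measured and 0 called, with 60 above 0 and a median of 0.083, from -0.17 for Mrps5 to 0.58 for Mrpl48.

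Of 22 mTOR pathway genes 13 were measured and 0 called, beside 2.10% of all measured genes, with a median of 0.048. Sesn3, an inhibitor of mTOR complex 1, stood at 136 and 118 CPM (log2 -0.20), and Eif4ebp1, a repressor of cap-dependent initiation, at 43.0 and 52.5 CPM (log2 0.28). Of 20 genes of the integrated stress response 12 were measured, and 1 was called, lower, beside 1.21% of all measured genes called lower. It was Ppp1r15a, whose product removes the phosphate from initiation factor 2, at 110.1 and 39.5 CPM (log2 -1.45). Atf4, the main transcription factor of that response, stood at 118 and 116 CPM. Of the 12 genes 6 lay above 0 and 6 below, with a median of 0.021 and a highest log2 ratio of 0.50. In macrophages 3 of 10 measured genes were called lower and 0 higher, beside 3.12% and 1.40% of all measured genes. In endothelial cells 1 of 11 was called lower and 1 higher, beside 3.27% and 3.42%.

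In endothelial cells compared with interstitial cells, 12 of 32 measured biogenesis genes were called higher in the wild type (median log2 0.52) and 11 of 31 in the Fbn1 C1039G/+ library (median 0.48), and 0 were called lower. Beside them 28.0% and 26.8% of all measured genes were called higher and 14.7% in each library lower. The ribosomal proteins themselves had medians of -0.10 and 0.039 in the same comparison.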

How the data were processed

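The deposited matrices hold raw UMI counts per gene and barcode, made by the authors on mm10, as the labels and headers state. The submitters' processing notes name Cell Ranger 3.1.0 and the file header names 5.0.1. The same counts were used for all results. Cells needed 500 genes, 1000 UMIs and a mitochondrial share of no more than 20% (9190 and 9440 barcodes). Scrublet in scanpy 1.11.5 called 0% and 0.0106% doublets, so barcodes with top scores, ties at the limit included, were taken out, 764 (8.31%) and 752 (7.97%). The rates aimed at, 7.61% and 7.80%, were set as 0.8% per 1000 deposited barcodes. Free RNA was not subtracted. UMIs were summed per class and library as CPM, and log2 ratios used a pseudocount of 1 CPM. Intervals are exact (Poisson, Clopper-Pearson or conditional binomial). Only the gene comparison was tested on simulated data, drawn with Poisson counting error and no variation between cells or libraries. States came from Leiden clustering on 2000 variable genes and 30 components at a resolution of 0.5.

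The members, lists and class thresholds were chosen with earlier results of these data known. The rule for named members took the 5 highest and 5 lowest levels, the 3 highest and 3 lowest genotype ratios per class, the 5 highest and 5 lowest ratios between classes, the paralog pairs, X-linked members, stalk proteins and Rpsa, and up to 3 genes at either end of each list. Rpl10, Rps29, Rps25, Tpt1, Eef1a1 and Atf4 were also named where a result touched them, after their values were seen. Alternatives changed doublet removal, class and depth limits, denominator, scaling, pseudocount, filters and fold. GENCODE M21 matched 32235 of 32285 genes and gave coding lengths.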

Additional observations from a re-analysis of the deposited data

Results flagged for a closer look

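Rpl22l1, the paralog of Rpl22, had genotype log2 ratios of opposite direction in different classes, each with a counting interval that excluded 0. The ratio of Fbn1 C1039G/+ over wild type was -0.33 in interstitial cells and -0.29 in macrophages, and 0.13 in endothelial cells. With 1 library per genotype the difference between the classes was not tested.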

How the results depend on the processing

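No paired analysis was possible because each genotype had 1 library and the groups share 1 replicate number. The interstitial and macrophage share ratios between genotypes stayed below 1 under all alternatives run. The endothelial ratio of 0.985 turned to 1.03 in cells with 5000 to 20000 UMIs, and the cause was not tested. With doublets kept, the ratios were 0.903 in interstitial and 0.979 in endothelial cells. Stricter class thresholds gave 0.900 and 0.980, and every deposited barcode gave 0.980 in endothelial cells. In cells with 5000 to 20000 UMIs the ratio was 0.902 in interstitial cells and 0.948 in macrophages. Means of per-cell shares gave 0.892, 0.959 and 0.998 for interstitial, macrophage and endothelial cells. Macrophage over interstitial share ratios in the wild type and Fbn1 C1039G/+ library were 1.12 and 1.18 with doublets kept, 1.15 and 1.22 with stricter thresholds, and 1.12 and 1.18 with every barcode. They were 1.13 in the wild type by the depth limits and 1.21 in the Fbn1 C1039G/+ library by per-cell means. Endothelial over interstitial ratios were 0.951 with doublets kept and 0.9501 with every barcode in the wild type. In the wild type and Fbn1 C1039G/+ library they were 0.968 and 1.054 with stricter thresholds, 0.961 and 1.10 by the depth limits, 0.955 and 1.04 without mitochondrial UMIs, and 0.966 and 1.08 by per-cell means. Among members called by genotype, dropping the level filter added 1 in macrophages, Rpl39l (5.76% of all genes called). A smaller fold threshold gave 2 in interstitial and 1 in endothelial cells, all lower, beside 3.55% and 8.70% of all genes called lower. Between macrophages and interstitial cells the 4 called members became 9 (all higher) with median-ratio scaling, where 24.97% of all genes were called higher, 2 with member scaling (57.2% called), 23 (22 higher, beside 27.7%) at the smaller fold and 1 at a fold of 2 (38.9% called). Between endothelial and interstitial cells the count of 0 became 1 lower with median-ratio scaling (16.8% called lower), 1 higher with member scaling (22.8% called higher) and 4 (2 each way) at the smaller fold (37.1% higher and 17.5% lower). Of the values for single members and medians 1183 stayed within their counting interval (for medians and correlations within 0.05). The other 269 did not, most of them under another scaling. The other fold thresholds could not move any of these values, so part of the 1183 was fixed in advance. Dropping the level filter could not move the ratio of a single member either. Depth limits Rpl39l and the smaller classes, and no alternative replaces the replicate libraries that would be needed to compare genotypes.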
